A study of Mus musculus with 4 samples.

Results

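The BCL2 family decides whether mitochondria release the factors that start cell death, and 10 of its genes were followed in NF639 cells: Bcl2, Bcl2l1, Mcl1, Bax, Bak1, Bcl2l11, Bid, Bad, Bbc3 and Pmaip1. They were chosen by gene name, and every probe set whose platform annotation gave only that symbol was taken. This yielded 24 probe sets for 9 of the 10 genes, out of 12393 genes on the array with a probe set of their own; no probe set was listed for Bax alone, so Bax was not analysed here. NF639 is a cell line from a mouse mammary tumour that arose under the ErbB2 oncogene, also known as Her-2/neu. One group was the original NF639 population and the other was a pool of NF639 cells with resistance to EGCG (epigallocatechin 3-gallate), a polyphenol abundant in green tea. Each group had 2 Affymetrix Mouse 430A 2.0 arrays of total RNA, from independent experiments per the labels. The labels call the resistant cells a pool and do not describe a clone. They also do not say whether EGCG was present at harvest.

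The family has 3 kinds of member. Survival proteins (BCL2, BCL-XL from Bcl2l1, and MCL1) hold the pore-forming effectors BAX and BAK in check, and BH3-only proteins (BIM from Bcl2l11, BID, BAD, PUMA from Bbc3, and NOXA from Pmaip1) bind survival proteins or switch on the effectors. BIM can be kept low in growth-factor-driven epithelial tumour cells, where ERK signalling marks the protein for degradation and FOXO factors can raise its transcription. MCL1 is a short-lived protein that binds BIM, NOXA and BAK.

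The members furthest apart between the groups, by unadjusted p, were Bcl2l11, with higher signals in the resistant pool, and Mcl1, with lower ones, though neither passed the test over all probe sets. Their upstream sequences are shown because the results turn on these 2 genes. They are the 250 bases before the first listed start of Bcl2l11 (chr2:128125788-128126037, plus strand) and of Mcl1 (chr3:95658471-95658720, plus strand), from RefSeq on GRCm38.p6, with capitals marking the FOXO core and GC boxes.
Bcl2l11: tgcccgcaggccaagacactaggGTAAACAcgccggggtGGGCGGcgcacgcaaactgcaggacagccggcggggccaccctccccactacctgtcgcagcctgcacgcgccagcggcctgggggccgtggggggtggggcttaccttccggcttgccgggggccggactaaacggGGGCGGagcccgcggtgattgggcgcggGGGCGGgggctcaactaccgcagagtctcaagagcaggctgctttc
Mcl1: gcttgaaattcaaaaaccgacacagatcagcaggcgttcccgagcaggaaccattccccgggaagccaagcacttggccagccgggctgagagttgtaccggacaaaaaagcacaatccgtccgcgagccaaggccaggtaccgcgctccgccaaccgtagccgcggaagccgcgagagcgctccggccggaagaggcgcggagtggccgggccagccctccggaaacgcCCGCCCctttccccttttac

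The printed Bcl2l11 window held 1 match to the FOXO core GTAAACA and 3 to the GC box GGGCGG. The printed Mcl1 window held 1 GC box, and each motif was searched on both strands. The window of the other listed Bcl2l11 start (chr2:128127325-128127574) held 0 FOXO cores and 2 GC boxes. Of all 32851 windows of this length, 3.17% held the FOXO core and 32.7% a GC box. Among the 14 windows listed for 8 members, the FOXO core was in 2, of Bcl2l11 and Bbc3, and a GC box was in 9. The E-box CACGTG was in 1 of them, of Bbc3, against 6.02% of all windows. The motifs TGACGTCA (CRE), TGANTCA (AP-1) and TTTCCCGC (E2F) were in 0 of the 14, against 1.55%, 6.75% and 0.895% of all windows. GC made up 72% of the printed Bcl2l11 window and 64.4% of the printed Mcl1 window, and the median over all windows was 52.4%. A match describes letters and does not show that a factor binds.

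All values are MAS5 signals, linear intensities that summarise the probes of 1 probe set on 1 array. The arrays had been scaled to nearly the same mean by the authors, and their median signals ran from 114 to 135. Differences are log2 fold changes, resistant minus original, of the signal plus 3, which understates the change of dim probe sets. Probe sets with a mean signal under 51.9, the 40th percentile, were not tested. A probe set was called at a Benjamini-Hochberg adjusted p under 0.05 in a limma fit over all 13576 probe sets tested, which called 31 of them, or 0.228%. An exact permutation test of 2 arrays against 2 cannot go below p = 0.333. The bacterial spike-in controls added at hybridisation (BioB, BioC, BioDn) differed with the replicate number. All 7 of their probe sets that were examined gave more signal on array 2 than on array 1 of each group. Differences between arrays of the same number are therefore also given. Of 10 luminal epithelial markers only Erbb2 passed the filter (319.7 and 299.4 original, 280.7 and 326.2 resistant), while Epcam lay between 1.4 and 6.7, Cdh1 between 6.7 and 15.3 and Krt8 between 27.5 and 62.9. The markers of fibroblasts (7 with a probe set, 5 tested, 1 called) lay on both sides of 0. Their median log2 fold change over all 7 was -0.57, the value of Thy1, which lay under the filter. Among the 5 tested the middle value was 0.72, that of Pdgfra. Col3a1 was called higher (1.99; limma adjusted p = 0.0477). Of the other tested ones Col1a1 (0.99) was higher without overlap, Col1a2 (-0.62) and Dcn (-2.15) were lower without overlap, and Pdgfra (0.72) overlapped; none of these passed. The list summed to 5916 and 5203 on the original arrays against 5525 and 4741 on the resistant ones, and Col1a2 alone read 4171.7 and 4416, and 2427.3 and 3228.5. Those of leukocytes (7 with a probe set, 3 tested, 0 called) summed to 580 and 445, and 468 and 456. No marker of endothelium or adipocytes passed the filter. The summed signals of both lists overlapped between the groups, which for fibroblasts hides the opposite directions of single markers. The part of these markers in the members' results was not tested. In bulk RNA, fewer cells with a transcript and less of it in each cell cannot be told apart.

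None of the 22 member probe sets that could be tested was called, against 0.228% of all probe sets. At an unadjusted p under 0.05 there were 5, 2 of Bcl2l11 and 3 of Mcl1, where 7.51% of all tested probe sets passed. Both resistant arrays lay above both original arrays in 5 of the 22, where 17.8% of all tested probe sets did so, and below them in 8, where 18.4% did. Probe sets of 1 gene share its transcript and are not independent, and 6 of those 8 belong to Mcl1. Taking 1 probe set per gene, the 8 genes tested had a median log2 fold change of 0.03, against -0.004 over all tested probe sets, with 5 genes above 0 and 3 below.

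**Figure D1:**
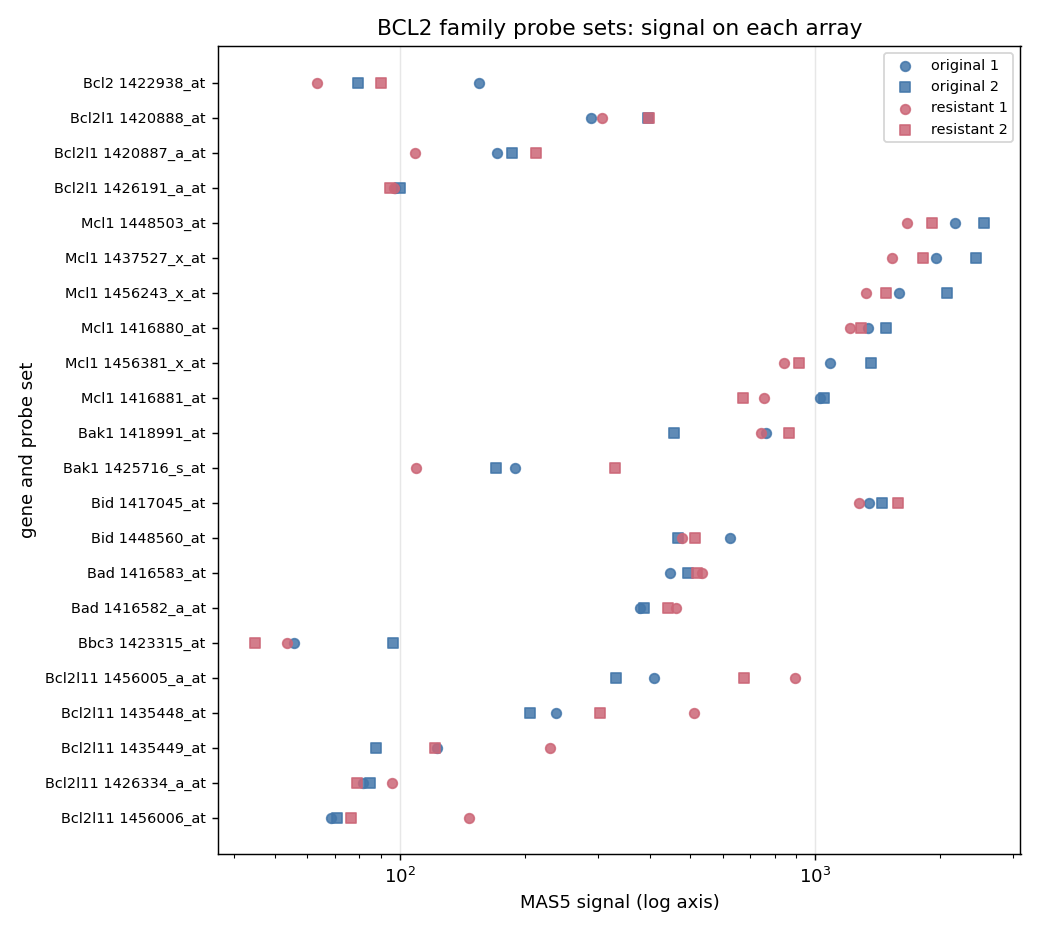
MAS5 signal (log axis) of the 22 tested BCL2 family probe sets, 1 row each; blue points are original and red points resistant arrays, circles for number 1 and squares for number 2. In all 6 Mcl1 rows both red points lie left of both blue points, and in the brightest Bcl2l11 row they lie right of them.

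Among the survival genes, Mcl1 was lower in the resistant pool on all 6 of its probe sets, and the 2 groups did not overlap on any of them. Its brightest probe set, 1448503_at, read 2176 and 2555.9 on the original arrays against 1670 and 1919 on the resistant ones, a mean of 2366 ± 269 against 1794.5 ± 176 (SD, n = 2 per group). The log2 fold change was -0.40 ± 0.17 (SE), and it was not called (limma, unadjusted p = 0.0449, adjusted p = 0.649). The largest difference was on 1416881_at, with 1032.1 and 1054.2 original against 755.7 and 670.7 resistant, a log2 fold change of -0.55 ± 0.18 (SE; adjusted p = 0.446). Here the gap between the groups was far wider than the spread within either. Probe set 1456381_x_at read 1085.5 and 1363.9, and 840.8 and 915.9 (-0.47 ± 0.19, SE; unadjusted p = 0.0307, adjusted p = 0.586).

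The other 3 Mcl1 probe sets were 1437527_x_at, 1456243_x_at and 1416880_at, with log2 fold changes of -0.39, -0.38 and -0.17. The last of these came closest to overlap, with 1341.5 and 1481.3 original and 1214.6 and 1293.9 resistant. Across the 6 probe sets the median was -0.39. The suffix x in a probe set's name marks probes that may bind other transcripts; the 3 Mcl1 probe sets without it had -0.40, -0.55 and -0.17. Between arrays of number 1 the 6 differences ran from -0.14 to -0.45 and between those of number 2 from -0.20 to -0.65, so every one was below 0 at both numbers. Without original 2 the log2 fold change of 1448503_at was -0.28, and without original 1 it was -0.52.

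Bcl2 itself had 1 probe set, 1422938_at, and was dim. It read 155 and 79.6 on the original arrays against 63.4 and 90.2 on the resistant ones, so the groups overlapped. Its log2 fold change of -0.54 had a 95% interval from -1.46 to 0.38 (limma adjusted p = 0.872), and it was -1.25 at number 1 and 0.17 at number 2. These arrays do not settle a direction for Bcl2.

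Bcl2l1, whose main product is the survival protein BCL-XL, had 4 probe sets with no common direction. Its brightest, 1420888_at, read 289.7 and 395.6 original and 306.7 and 399.3 resistant, a log2 fold change of 0.05 with a 95% interval from -0.51 to 0.61. In both groups the array numbered 2 was the brighter, by 0.45 and 0.38 on the log2 scale, a difference larger than that between the groups. Probe set 1426191_a_at was nearly level, at 97.3 and 100 original and 97 and 95.1 resistant. Probe set 1420887_a_at read 171.7 and 186.6, and 108.9 and 213.6 (-0.23), with both original arrays inside the range of the resistant ones. The last probe set, 1426050_at, lay under the filter at 23.5, 2.3, 12.5 and 1.7 and was not tested. The sign of the Bcl2l1 difference turned to -0.18 without original 1 and to -0.14 without resistant 2.

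The effector gene Bak1, which makes the pore protein BAK, read 763.8 and 457.8 on the original arrays against 742.2 and 865.4 on the resistant ones by 1418991_at. The log2 fold change was 0.44 ± 0.25 (SE), with a 95% interval from -0.12 to 0.99 (limma adjusted p = 0.78). The difference lay wholly between the arrays of number 2, at 0.91 there and -0.04 at number 1, and original 2 was the low array. Without original 2 it was 0.07. Its second probe set, 1425716_s_at, of a kind that can bind related transcripts, read 190 and 170.7, and 109.3 and 329.6. There the 2 resistant arrays enclosed the original ones, and the difference was -0.78 at number 1 and 0.94 at number 2.

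Bcl2l11, the gene of BIM, was the member with the largest difference. Its brightest probe set, 1456005_a_at, read 410.2 and 332.6 on the original arrays against 893.8 and 674.7 on the resistant ones, a mean of 371.4 ± 54.9 against 784 ± 155 (SD, n = 2 per group) and a 2.11-fold ratio. The lower resistant array lay well above the higher original one. The log2 fold change was 1.06 ± 0.22 (SE), with a 95% interval from 0.57 to 1.56 (limma, unadjusted p = 0.000708, adjusted p = 0.128). It was thus not called. At numbers 1 and 2 the difference was 1.12 and 1.01. The log2 fold change was 1.21 without original 1 and 1.27 without resistant 2. It was 0.92 without original 2 and 0.86 without resistant 1. Each of these fits leaves a lone array in 1 group, which is assumed to vary like the other group.

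The other 4 Bcl2l11 probe sets were dimmer. All were fitted above 0 with the 4 arrays, and all had smaller values without resistant 1. Probe set 1435448_at read 238.7 and 205.7 original and 513.1 and 303.6 resistant, a log2 fold change of 0.82 ± 0.28 (SE; unadjusted p = 0.0156, adjusted p = 0.502). It was 0.45 without resistant 1. Probe set 1435449_at read 123 and 87.9, and 229.7 and 121.7 (0.67), where resistant 2 fell just below original 1 and the groups overlapped. It was 0.22 without resistant 1. On 1456006_at the original arrays read 68.5 and 70.5 and the resistant ones 146.6 and 76.5 (0.59), and it was 0.13 without resistant 1. Probe set 1426334_a_at stood apart from the rest, with 81.6 and 85 original and 95.8 and 79.1 resistant, a log2 fold change of 0.06 with a 95% interval from -0.74 to 0.86 that includes the values of 3 of the other probe sets and not that of the brightest. Its sign turned to -0.07 without resistant 1.

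Resistant 1 was the brightest array on all 5 Bcl2l11 probe sets. Differences between arrays of number 1 ran from 0.22 to 1.12, and those of number 2 from -0.10 to 1.01. On 4 of the 5 probe sets the difference was above 0 at both numbers, the exception being 1426334_a_at. The size was most alike at both numbers on the brightest probe set.

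**Figure D2:**
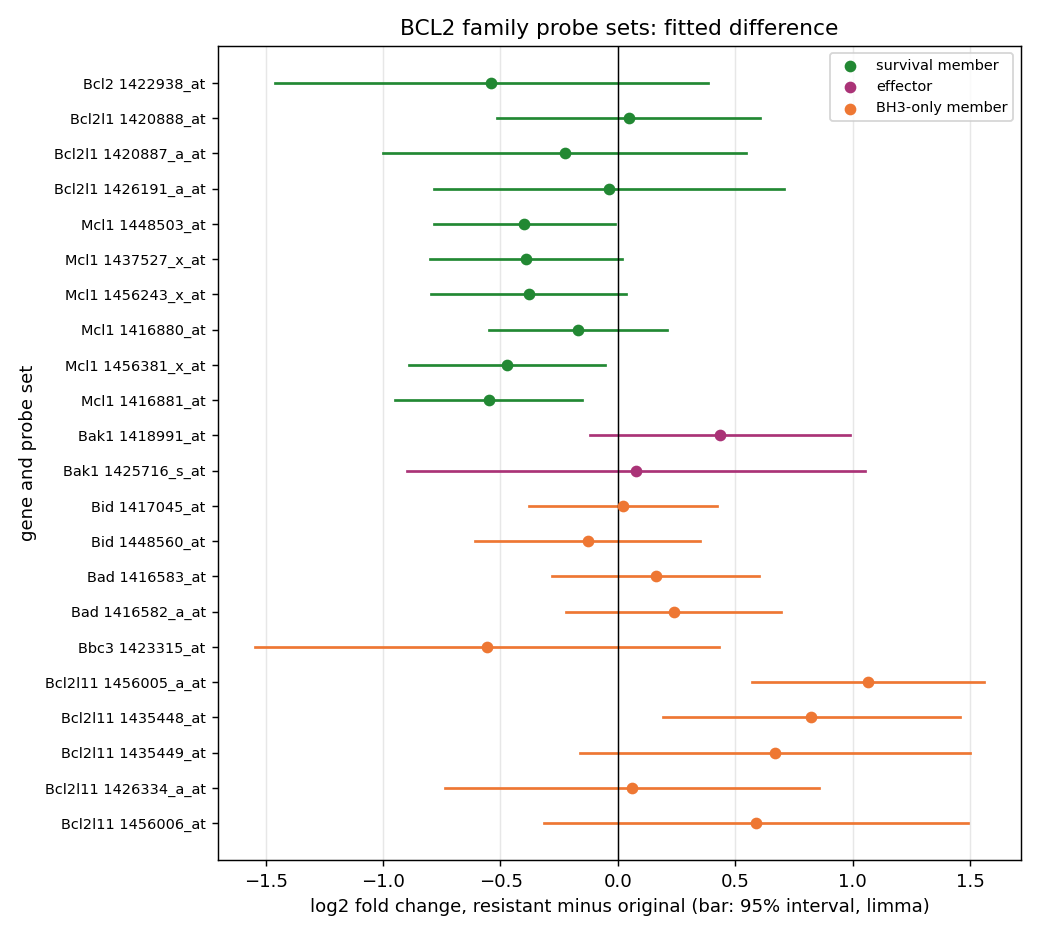
Log2 fold change, resistant minus original, of the 22 tested BCL2 family probe sets with 95% intervals from limma (bars); green marks survival genes, purple the effector Bak1 and orange BH3-only genes. Intervals that miss 0 belong to 3 Mcl1 probe sets, below 0, and to 2 Bcl2l11 probe sets, above 0, before adjustment for the 13576 probe sets tested.

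The other BH3-only genes differed little or were dim. Bid, which caspase-8 cleaves to link death receptors to mitochondria, read 1353.5 and 1452.4 original and 1277.9 and 1584 resistant by 1417045_at, where the resistant arrays enclosed the original ones. Its log2 fold change of 0.02 had a 95% interval from -0.38 to 0.42, and its second probe set, 1448560_at, had -0.13 with an interval from -0.61 to 0.35. The sign for 1417045_at turned to -0.03 without original 1 and to -0.14 without resistant 2.

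Bad, whose protein is held inactive by survival kinases such as AKT, was slightly higher on both probe sets, with no overlap. Probe set 1416582_a_at read 379.1 and 388.1 original and 463.8 and 442.3 resistant (0.24 ± 0.21, SE; limma adjusted p = 0.884). Probe set 1416583_at read 448.2 and 496, and 533.8 and 521.6 (0.16 ± 0.20, SE; adjusted p = 0.947). These arrays of 1 group lay close together, but the fit, which shares its estimate of the spread between probe sets of like brightness, gave 95% intervals that span 0 for both.

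Bbc3, the gene of the p53-induced protein PUMA, read 55.8 and 96.5 on the original arrays against 53.5 and 44.8 on the resistant ones. Both resistant arrays were lower, though the arrays of number 1 were nearly equal, and the log2 fold change of -0.56 had a 95% interval from -1.55 to 0.43 (limma adjusted p = 0.879). It was -0.06 at number 1 and -1.06 at number 2. Original 2 was the high array, and without it the difference was -0.18 and the probe set fell under the filter. Pmaip1, the gene of NOXA, which binds MCL1, lay near the floor of the scale at 0.7 and 2.9 original and 1.2 and 1.4 resistant, was not tested, and gives no fold.

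**Figure D3:**
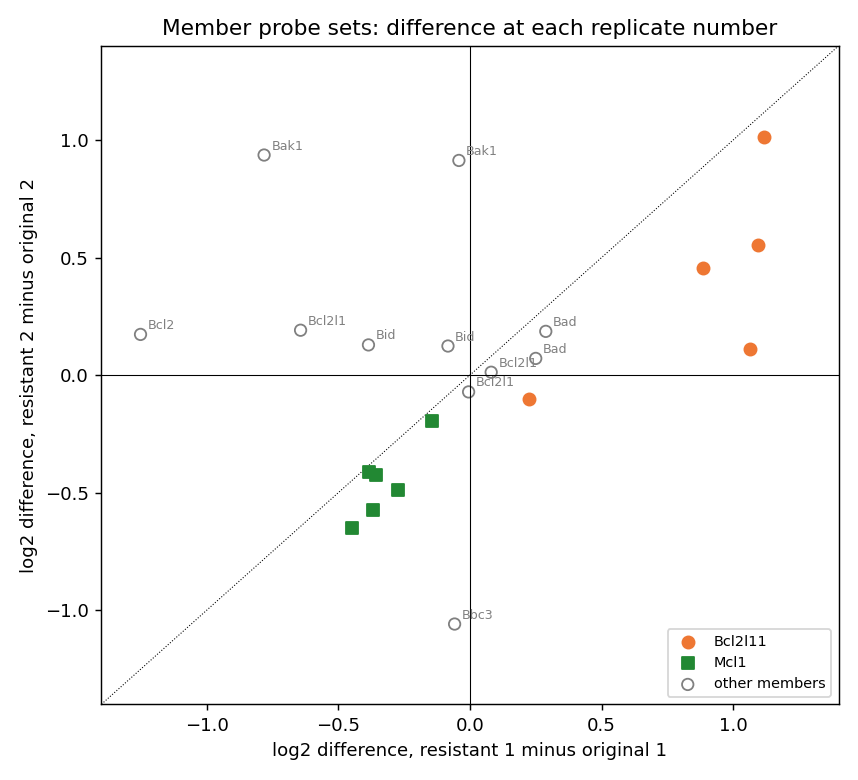
Log2 difference between resistant and original arrays of number 1 (x axis) and of number 2 (y axis) for the 22 tested member probe sets, with equality as a dotted line; orange circles are Bcl2l11, green squares Mcl1 and open circles other members. All 6 Mcl1 points lie below 0 on both axes and 4 of 5 Bcl2l11 points above 0 on both, while the Bcl2 point, both Bak1 points, both Bid points and 1 Bcl2l1 point have opposite signs on the axes.

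Of 18 further BCL2 family genes that were listed, 12 had a probe set and 6 were tested. Of these 0 were called, against 0.228% of all tested probe sets. At an unadjusted p under 0.05 there was 1, where 7.51% of all tested probe sets passed. This was Bnip3, the gene of a hypoxia-induced mitochondrial protein that promotes mitophagy. It read 721.5 and 1958.7 original and 378.7 and 408.3 resistant, a log2 fold change of -1.59 ± 0.37 (SE; limma adjusted p = 0.193). Both resistant arrays were lower, but the original arrays differed from each other by more than the lower of them differed from the resistant ones. The log2 fold change of Bnip3 was -2.31 without original 1 and -0.87 without original 2. Each of these fits leaves a lone original array, so only its size is given.

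Bcl2l2, the gene of the survival protein BCL-W, read 312.1 and 347.5 original and 523.8 and 404.8 resistant, with no overlap (0.48 ± 0.23, SE; limma unadjusted p = 0.0601, adjusted p = 0.701). Its 3 further probe sets lay under the filter. Bok, which makes a relative of BAX and BAK, read 100 and 90.6, and 65.7 and 64.6 (-0.53; adjusted p = 0.839). Bnip2 (-0.25 on its brightest probe set) and Bnip1 (-0.13) were lower without overlap, and Bcl2l13 (0.07) overlapped. Of the other tested Bnip2 probe sets, 1453993_a_at was at -0.12 without overlap and 1422490_at at -0.08 with overlap. Of the 6 genes, 4 were lower without overlap and 1 higher, against 18.4% and 17.8% of all tested probe sets. None of these differences passed. The median over the 6 was -0.19. The BH3-only genes Bik, Bmf and Hrk, and also Bcl2l10, Bcl2l14 and Bcl2l15, lay under the filter, with signals from 1 to 32.7.

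Other parts of the death pathway also held 0 called genes, against 0.228% of all tested probe sets. Lists this short are not set apart by holding 0 at that share. Of the machinery downstream of the mitochondrion (Cycs, Apaf1, caspases and their partners) 12 of 14 listed genes were tested, with a median of -0.02. At an unadjusted p under 0.05 there were 0, where 7.51% of all tested probe sets passed. Apaf1, the scaffold on which cytochrome c activates caspase-9, was lower without overlap (256.7 and 274.2 against 250.3 and 188.2, -0.29), as was Diablo (-0.17), which neutralises inhibitors of apoptosis. Htra2, a mitochondrial protease, was higher without overlap (0.19). Genes of this list were named only where the arrays did not overlap. That held for 1 higher and 2 lower of the 12 tested, against 17.8% and 18.4% of all tested probe sets.

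All 5 inhibitor of apoptosis genes were tested, with a median of -0.08 and 0 at an unadjusted p under 0.05, against 7.51% of all tested probe sets. Birc3, an NF-kappaB target, read 131.8 and 96.7 original and 75.2 and 64.1 resistant (-0.68 ± 0.36, SE; limma adjusted p = 0.748). Xiap, the direct caspase inhibitor, read 994.3 and 964.4, and 1290.8 and 1011.8 (0.22; adjusted p = 0.881). Of the death receptor arm 7 of 10 genes were tested, with a median of -0.11 and 0 at that level. Casp8, the caspase that cleaves BID, read 731.6 and 588.3 original and 987.8 and 759.9 resistant (0.40 ± 0.21, SE; adjusted p = 0.745), and the adaptor gene Tradd was at 0.24. Both were picked from the genes without overlap. Of the 7 tested, 2 were higher and 0 lower without overlap, against 17.8% and 18.4% of all tested probe sets.

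Of 24 listed regulators and partners of BCL2 proteins 19 were tested, 13 fitted above 0 and 6 below, with a median of 0.14 against -0.004 over all tested probe sets. Bag3, a co-chaperone that stabilises survival proteins, had the smallest unadjusted p. It read 359.6 and 513 original and 613.4 and 634.5 resistant (0.53 ± 0.22, SE; limma unadjusted p = 0.0387, adjusted p = 0.62). Akt1, whose kinase phosphorylates BAD, was at 0.31, the transcription factor gene E2f1 at 0.34 and Bcap31, an endoplasmic reticulum partner of BCL2, at 0.25. These genes were picked from those whose arrays did not overlap, so their lack of overlap is no result. Of the 19, both resistant arrays lay above both original arrays in 7, where 17.8% of all tested probe sets did so. They lay below them in 3, Pim1 (-0.36), Dynll1 (-0.17) and Huwe1 (-0.05), where 18.4% did. None of the 19 passed the test.

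**Figure D4:**
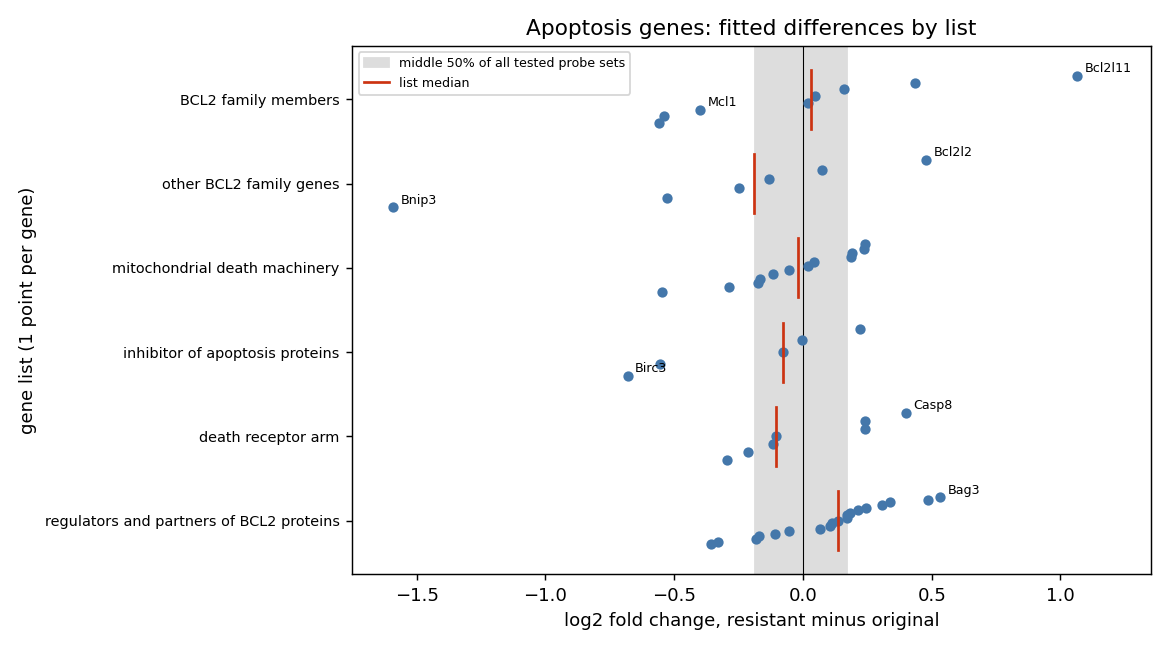
Log2 fold change, resistant minus original, of the tested genes of 6 apoptosis lists, 1 point per gene at its brightest probe set; red lines are list medians and the grey band holds the middle 50% of all tested probe sets. All list medians lie within the band except that of the other BCL2 family genes, which at -0.189 is just past the edge at -0.187. Bcl2l11 (1.06) and Bnip3 (-1.59) lie furthest out.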

How the data were processed

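Total RNA of 4 NF639 cultures was measured on Affymetrix Mouse 430A 2.0 arrays, 1 per culture. The deposited table holds linear signal intensities that the authors made with MAS5, per the labels; no version of MAS5 is stated there. The table held 22690 probe sets, 64 of them controls that were left out. Names came from the platform annotation, and the gene identifiers of all 24 member probe sets were found in the GRCm38.p6 table. No column was left unused.

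Arrays were rescaled to a common mean without the top and bottom 2%, and log2(signal + 3) was taken; 3 is the rounded 10th percentile. Probe sets with a mean under the 40th percentile were left out. limma 3.58.1 in R 4.3.3 (lmFit, eBayes with trend, two-sided, Benjamini-Hochberg) compared resistant with original arrays, with 8.12 prior degrees of freedom. The procedure was tested on simulated data. A gene was represented by its tested probe set with the highest mean. All members and other BCL2 family genes were named, and of each other list up to 4 genes whose arrays did not overlap, by smallest p. Members and lists were chosen with earlier results of these data known. Array signals carry no read depth, and precision depended on the number of arrays and on brightness. The SE was 0.17 for the bright Mcl1 1448503_at and 0.44 for the dim Bbc3 1423315_at. P-values measure only the spread between these 4 arrays.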

Additional observations from a re-analysis of the deposited data

How the results depend on the processing

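The alternatives covered the scaling, the pseudocount, the filter, the variance trend, the replicate number, single arrays and the choice of probe set. Over all tested probe sets 31 were called, against 11 with a filter at the 60th percentile, 5 with no filter, 5 without a variance trend, 8 after quantile normalisation, 740 with the replicate number as a replicate block, and 65 to 164 when 1 array was left out. A filter on the mean log2 signal, chosen after seeing the data, gave 23. Member probe sets called were 0 in every alternative except the replicate block, with 3 (Bcl2l11 1456005_a_at, adjusted p = 5.36e-06, and 1435448_at, 0.00604; Mcl1 1416881_at, 0.0425), and leaving out 1 array, with 0 to 1. The other family had 1 called gene with the block, Bnip3 (adjusted p = 9.13e-15), and 0 to 1 without 1 array. The labels do not say that a number marks a shared experiment; deviations of arrays with the same number correlated at 0.35 across probe sets, and in the block fit limma estimated infinite prior degrees of freedom, so a probe set's own spread had no weight. The Bcl2l1 difference turned to -0.17 as the mean of all its probe sets and ran from -0.18 to 0.27 without 1 array; Bid turned to -0.054 and ran from -0.14 to 0.18. Adjusted p for Bcl2l11 ran from 5.36e-06 to 0.432, and Mcl1 from 0.111 to 0.999. Signs were followed for the brightest probe set of a gene and for the mean of its probe sets. There Bcl2l11 (0.64 to 1.27), Mcl1 (-0.52 to -0.28), Bad, Bak1, Bbc3 and Bcl2 kept their sign in each alternative that measured them. Single dimmer probe sets did turn, Bak1 1425716_s_at to -0.71 without resistant 2 and Bcl2l11 1426334_a_at to -0.07 without resistant 1. The cause of these changes was not tested.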
